A study of Arabidopsis thaliana with 26 samples.

Results

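The genes described here were higher at 96 h than at 2 h in developing Arabidopsis leaves, and lower in mature than in developing leaves at 24 h. They were chosen by these measured values, on the scale log2(intensity + 4). A gene entered if its probe set was annotated to 1 gene, averaged at least 6 over the 26 arrays, stood at least 0.5 higher at 96 h than at 2 h in developing leaves, and stood at least 0.5 lower in mature than in developing leaves at 24 h. Of 13513 probe sets annotated to 1 gene, 4989 had a mean of at least 6, 525 of these also met the condition on the rise, 1707 met the condition on mature leaves, and 48 met both. Genes that rose in the strict order 2, 24, 48 and 96 h by 1 or more were left out, which removed 7, and AT5G48570 was left out by name. HYH was to be left out by name too, but it did not meet the thresholds. The remaining 40 genes are 40 of the 13513, each measured by 1 probe set. A further 44 probe sets met the same thresholds without a gene in the annotation and are not described.

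The series measured total RNA of wild-type Col-0 on the Affymetrix ATH1 array, for a study of systemic signalling of irradiance and CO2. All plants stood in a growth room on compost under a 10 h light period with CO2 and light at ambient levels, so every group shared this treatment and no other treatment was compared. Mature leaves, whose insertions the labels do not give, were taken at 24 h (2 arrays), and developing leaves of insertions 19 to 21 at 2, 4, 12, 24, 48 and 96 h (4 arrays each). The labels do not state the clock time from which the hours ran, and they number the replicates without saying whether these were separate plants, so the p-values reflect only sample-to-sample spread, which may be technical.

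A leaf imports sugar while it grows, loosens and rebuilds its walls, lays down a cuticle and accumulates flavonol glycosides that screen ultraviolet light, and it becomes an exporter of sugar once mature. Chaperones of the HSP70 class fold new and damaged proteins, and many of their transcripts follow heat, light and the daily cycle. Among the 40 genes, 10 carried a gene name. EXPB3 is a beta-expansin, a wall-loosening protein. WSD1 is a wax ester synthase of the cuticle. UGT78D1 and UGT78D2 attach sugars to flavonols, UGT78D2 to anthocyanins as well. Fes1A is a partner of HSP70 chaperones and MSRB6 a methionine sulfoxide reductase, which repairs oxidised methionine. MGL, methionine gamma-lyase, breaks down methionine, GME is an epimerase of GDP-mannose on the route to ascorbate, SWEET1 is a sugar transporter, and PDF1.2 is a defensin used as a marker of jasmonate and ethylene response. The other 30 had only a locus code in the annotation. Of these, AT3G09440 stood on the list of heat shock genes as an HSP70 family chaperone, and no role is given for the remaining 29.

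The 26 arrays were close in overall level, with median intensities between 40.7 and 47.0. The 2 mature arrays had the lowest, 40.7 and 41.7. Arrays of 1 group correlated across probe sets with a mean r of 0.967 to 0.981. A listed gene counts here as measured only if the annotation tied a probe set to it. As 8730 of the 22746 probe sets named no gene, other listed genes may be on the array unnamed. Of 9 photosynthesis genes listed as leaf markers, RCA, LHCB4.1 and PSAN were measured. No listed marker of root, flower or meristem was named in the annotation, so the leaf label was not checked against other organs. The summed intensity of the 3 photosynthesis genes was 12066 and 17812 in mature leaves and 8432 to 14799 in developing leaves at 24 h. The 3 measured genes of 5 on a list of stomatal lineage and guard cell markers summed to 116 and 138 in mature leaves and to 432 to 531 in developing leaves at 24 h. Within that list SPCH averaged 2.69 in mature leaves and 6.75 in developing leaves, STOMAGEN 6.34 and 8.31, and FMA 5.67 and 6.03. The actin control's 3 prime over 5 prime signal (log2), a sign of RNA integrity, was 1.2 to 1.99 in mature leaves and 1.71 to 2.60 in developing leaves at 24 h, 1.22 to 2.28 at 96 h and 2.43 to 2.77 at 2 h, and 1.80 to 2.62 at 12 h and 2.55 to 2.81 at 4 h. The same ratio of the ubiquitin control did not overlap in either comparison that chose the genes, with 1.04 to 1.53 in mature leaves and 1.58 to 1.83 in developing leaves at 24 h, and 0.99 to 1.33 at 96 h and 1.42 to 1.91 at 2 h. It overlapped between 12 h (1.43 to 1.79) and 4 h (1.63 to 2.01), and the ratio of the GAPDH control overlapped in all 3 comparisons. The part of these markers and ratios in the differences that chose the genes was not tested. In bulk leaf RNA, fewer cells of a type and less RNA per cell cannot be told apart.

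**Figure D1:**
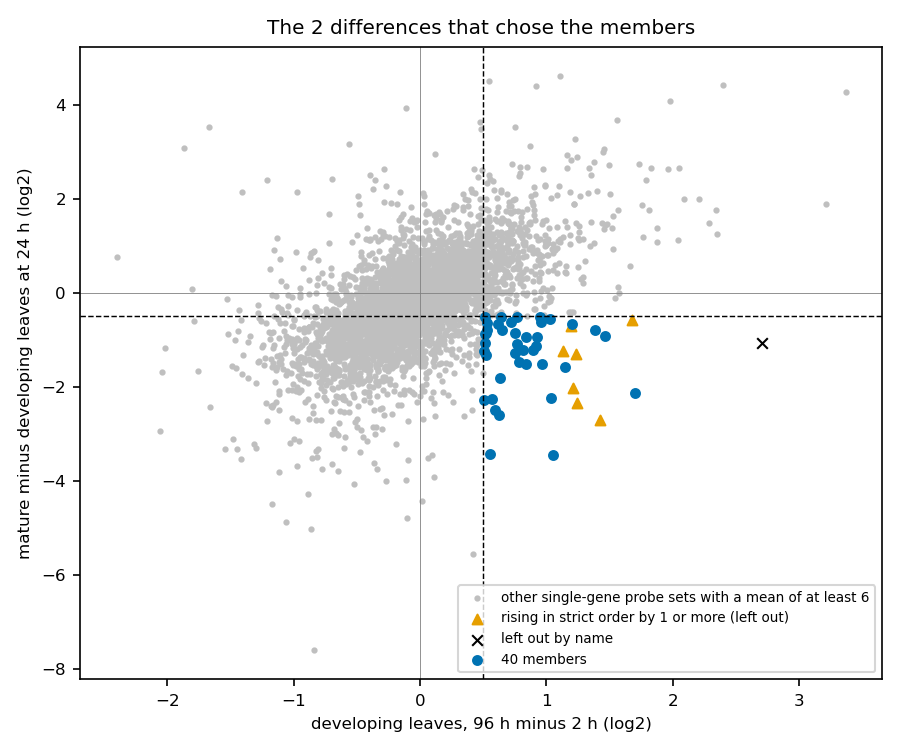
Each point is 1 of the 4989 single-gene probe sets with a mean of at least 6, with developing leaves at 96 h minus 2 h on the x axis and mature minus developing leaves at 24 h on the y axis (both log2 differences, dashed lines at 0.5 and -0.5). The 40 genes described (blue) fill the lower right corner together with the 7 left out for a strict rise (orange triangles) and the 1 left out by name (cross).

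The rise from 2 h to 96 h was under 1 in most of the genes, and the gap to mature leaves had the larger median. The rule shaped this contrast, since it left out strict rises of 1 or more and set no such limit on the gap. The difference between 96 h and 2 h ran from 0.51 to 1.70 with a median of 0.76, against a median of -0.02 over the 13648 probe sets that were tested. It reached 1 in 8 genes. Mature leaves lay below developing leaves at 24 h by a difference of -0.51 to -3.44 with a median of -1.07, against -0.15 over all tested probe sets, and by 1 or more in 21 genes and 2 or more in 8. These values chose the genes and are given as a description. The 2 mature arrays lay below all 4 developing arrays at 24 h in 37 of the 40, where 37.9% of all tested probe sets did, and the 4 arrays at 96 h lay above all 4 at 2 h in 36, where 18.4% did. Both separations held in 34, and the share of all tested probe sets with both was not counted. The exceptions were AT5G14700 and AT5G55450 for mature leaves, AT1G13640, AT1G65560 and AT5G15780 for the rise, and PDF1.2 for both.

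The path between 2 h and 96 h is given as a description only, since the rule used the levels at 2, 24 and 96 h, and left out strict rises that included 48 h, and so shaped it. The 4 h mean was below the 2 h mean in 36 of the 40 genes, against 56.7% of all tested probe sets and 76.9% of the 477 single-gene probe sets that met the floor and the rise but not the condition on mature leaves. The lowest developing mean fell at 4 h in 25, at 12 h in 13 and at 2 h in 2. At 4 h or 12 h it fell in 38, against 44.1% of all tested probe sets and 79.2% of the 477. The 24 h mean was above the 12 h mean in 37, against 46.8% of all tested probe sets and 63.7% of the 477. In 36 genes at least 50% of the difference between 96 h and 2 h was present at 24 h. This held in 53.6% of all tested probe sets, rising or falling, and in 45.7% of the 477. Later steps were small, with a median difference of 0.04 between 48 h and 24 h and of 0.09 between 96 h and 48 h. In 7 genes the 24 h mean was at or above the 96 h mean. The highest mean fell at 96 h in 24 genes, at 48 h in 9, at 24 h in 6 and at 12 h in 1, AT1G13640. Mature leaves were below every developing mean in 23 genes, below the 2 h mean in 34 and below the 96 h mean in all 40. In 6 genes they thus stood between the 2 h and the 96 h means. The shares of all tested probe sets with these patterns were not counted.

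**Figure D2:**
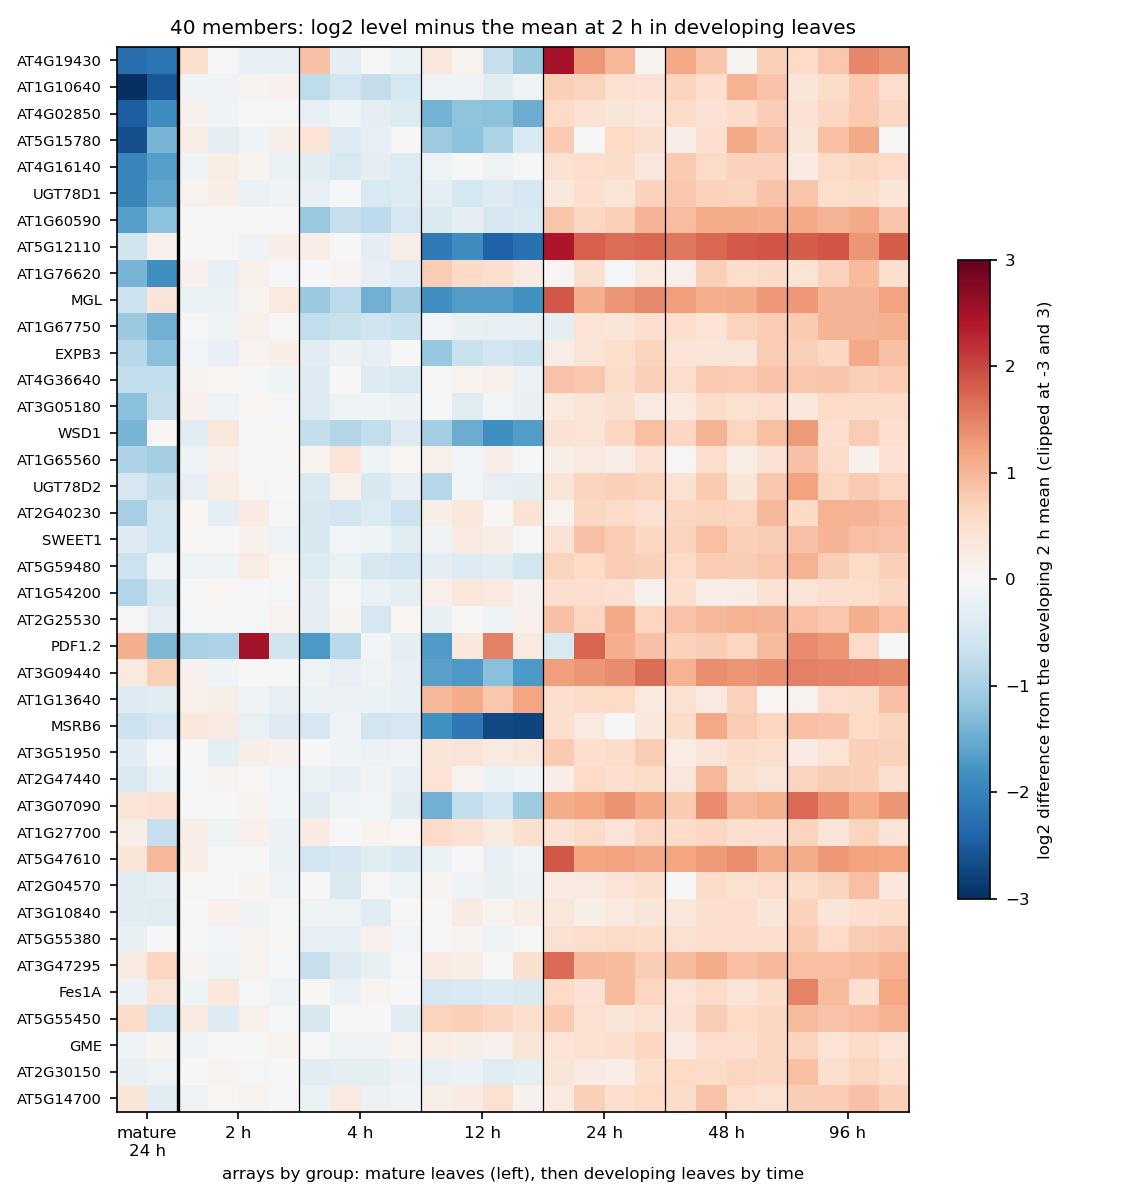
Rows are the 40 genes, ordered from the largest gap between mature and developing leaves at 24 h down, and columns the 26 arrays, mature leaves at left and developing leaves by time. Colour gives the log2 level minus that gene's mean at 2 h in developing leaves (clipped at -3 and 3). The later developing arrays (24, 48 and 96 h) are mostly above 0, while the 12 h arrays split into genes far below 0, such as AT5G12110 and MSRB6, and genes above it, such as AT1G13640.

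Levels at 12 h and 4 h were not used for either difference, so this is where the genes could be tested. They entered the choice of genes only through the floor on the mean. Among the 40 genes 17 rose and 10 fell at 12 h against 4 h in limma at an adjusted p under 0.05, over the 13648 tested probe sets, all 40 genes being among these. Over all tested probe sets 39.2% passed, 21.7% higher and 17.5% lower, whereas 67.5% of the genes passed, 42.5% higher and 25% lower. The median difference was 0.18 in the 40 genes and 0.06 over all tested probe sets. The balance of directions depended on scaling. With each array centred on its median, which lowers every 12 h minus 4 h difference by 0.07, 10 of the genes passed as higher and 10 as lower, and over all probe sets 2202 passed as higher and 2769 as lower, against 2960 and 2391 as deposited.

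Genes that met only 1 of the 2 conditions divided differently in this comparison. Of the 477 single-gene probe sets with the rise but not the gap to mature leaves, 240 passed as higher at 12 h and 43 as lower, 59.3% in all. Of the 1659 that met the floor and were lower in mature leaves without the rise, 194 passed as higher and 609 as lower, 48.4% in all. The differences between these shares were not tested.

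**Figure D3:**
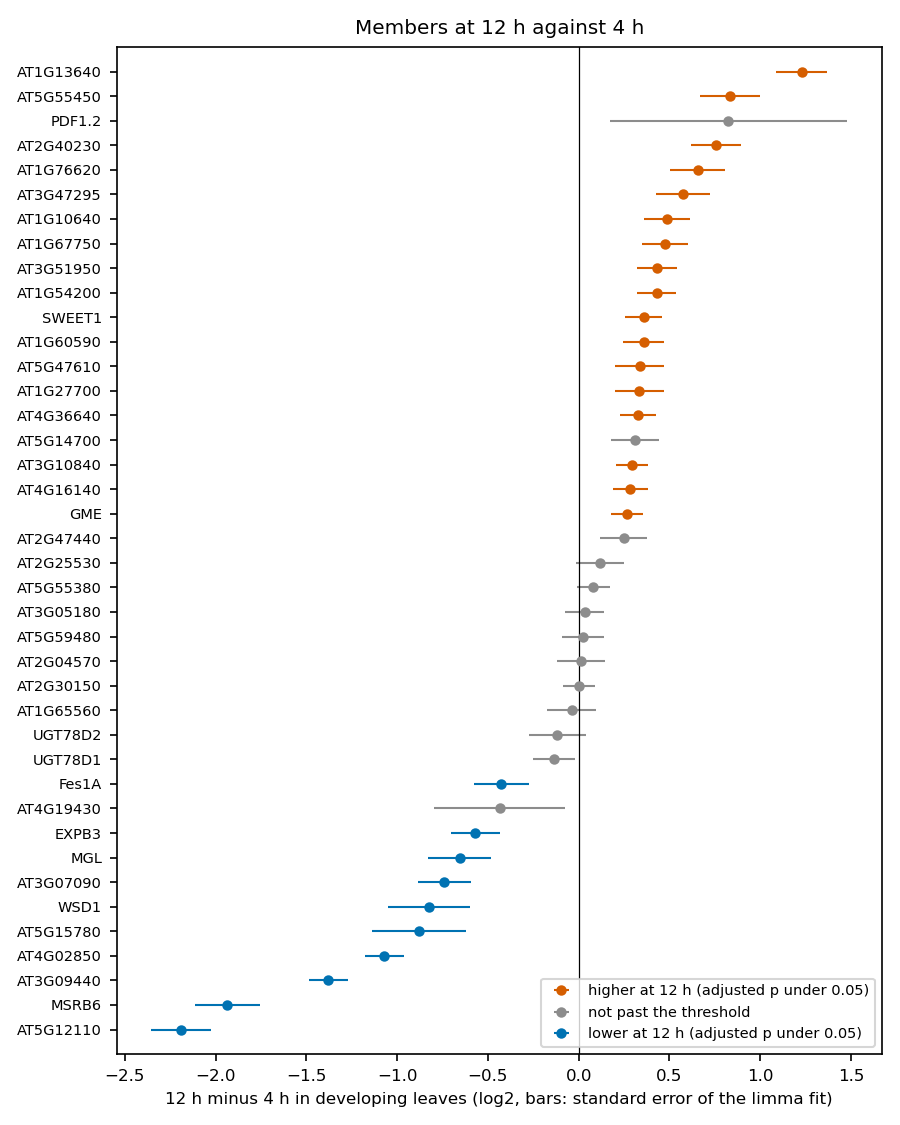
Points are the differences between 12 h and 4 h in developing leaves for the 40 genes (log2, n = 4 arrays at each time, bars the standard error of the limma fit), coloured by whether the adjusted p was under 0.05. The falls reach further than the rises, from -2.19 for AT5G12110 to 1.23 for AT1G13640.

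The chaperone and protein repair genes were all at their lowest at 12 h in developing leaves. AT3G09440, the HSP70 family gene and the brightest of the 40, stood at 8.13, 8.04, 8.5 and 8.02 at 12 h and at 9.60, 9.51, 9.59 and 9.51 at 4 h. It fell by 1.38 ± 0.11 on the log2 scale at 12 h (SE of the fit, adjusted p = 1.6e-10, limma), 2.60-fold, and the arrays of the 2 times did not overlap. At 2, 24, 48 and 96 h it averaged 9.75 ± 0.10, 11.17 ± 0.19, 11.04 ± 0.17 and 11.22 ± 0.04 (SD, n = 4 each), so that its 24 h mean was 3.0 above that of 12 h. In mature leaves it read 10.05 and 10.46, under the developing leaves of 24 h at 11.00, 11.08, 11.18 and 11.43 but above developing leaves at 2, 4 and 12 h.

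Fes1A, which works with HSP70, moved in the same directions by smaller amounts. Its arrays read 6.41, 6.44, 6.5 and 6.46 at 12 h and 6.92, 6.70, 6.98 and 6.92 at 4 h, and it fell by 0.43 ± 0.15 (adjusted p = 0.027, limma). This call was lost in 6 of the 19 other settings tried, among them the fit with the actin ratio as a covariate. At 96 h it read 8.39, 7.85, 7.40 and 8.06, and at 2 h 6.76, 7.20, 6.83 and 6.78. In mature leaves it read 6.72 and 7.28, under 7.49, 7.33, 7.83 and 7.53 in developing leaves at 24 h, and the gap of -0.55 became -0.26 without mature replicate 1 and -0.83 without mature replicate 2. Fes1A and AT3G09440 lie on 1 chromosome with 8 protein-coding genes between them. ATHSP22.0, the only other measured gene of the 18 on the heat shock list, differed by 0.06 ± 0.19 between 12 h and 4 h (adjusted p = 0.84, limma), and its gap between mature and developing leaves was -0.19.

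MSRB6 had the second largest fall. It stood at 6.64, 6.30, 5.74 and 5.70 at 12 h and at 7.96, 8.34, 7.89 and 7.94 at 4 h, and fell by 1.94 ± 0.18 (adjusted p = 3.1e-09, limma), 3.83-fold. At 2, 24, 48 and 96 h the developing mean was 8.45, 8.72, 9.23 and 9.20. In mature leaves it read 7.80 and 7.94, under 8.96, 8.71, 8.44 and 8.77 in developing leaves at 24 h, which places mature leaves near the 4 h level.

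The flavonoid glycosyltransferases did not pass the test of 12 h against 4 h, and both were well below their developing levels in mature leaves. UGT78D1 read 6.01 and 6.43 in mature leaves and 8.32, 8.49, 8.38 and 8.69 in developing leaves at 24 h, a gap of -2.25, or a 4.76-fold higher level in developing leaves. UGT78D2 read 7.08 and 6.88 in mature leaves and 7.97, 8.26, 8.30 and 8.25 in developing leaves, a gap of -1.22. Mature leaves were below all 6 developing means for both genes. The difference between 12 h and 4 h was -0.14 ± 0.12 for UGT78D1 (adjusted p = 0.38, limma) and -0.12 ± 0.16 for UGT78D2 (adjusted p = 0.60, limma), and the arrays of the 2 times overlapped. Between 96 h and 2 h they differed by 0.57 and 0.82.

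DFR, which makes anthocyanin precursors, was the only other measured gene of the 12 on the flavonoid list. It fell by 1.03 ± 0.28 at 12 h against 4 h (adjusted p = 0.0047, limma). Its SD was 0.91 at 4 h and 0.35 at 12 h, and the SE draws on 1 spread shared by all groups, so this fall is uncertain. DFR had a gap of -0.49 between mature and developing leaves and a difference of -0.48 between 96 h and 2 h. It shared the gap in sign but not the rise. CHIL, a chalcone isomerase-like protein that assists flavonoid synthesis, was 1 of the 7 genes left out for a strict rise. At 2, 24, 48 and 96 h it averaged 7.76, 8.52, 8.87 and 9.0 in developing leaves, and it was lower in mature leaves by a difference of -2.33.

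**Figure D4:**
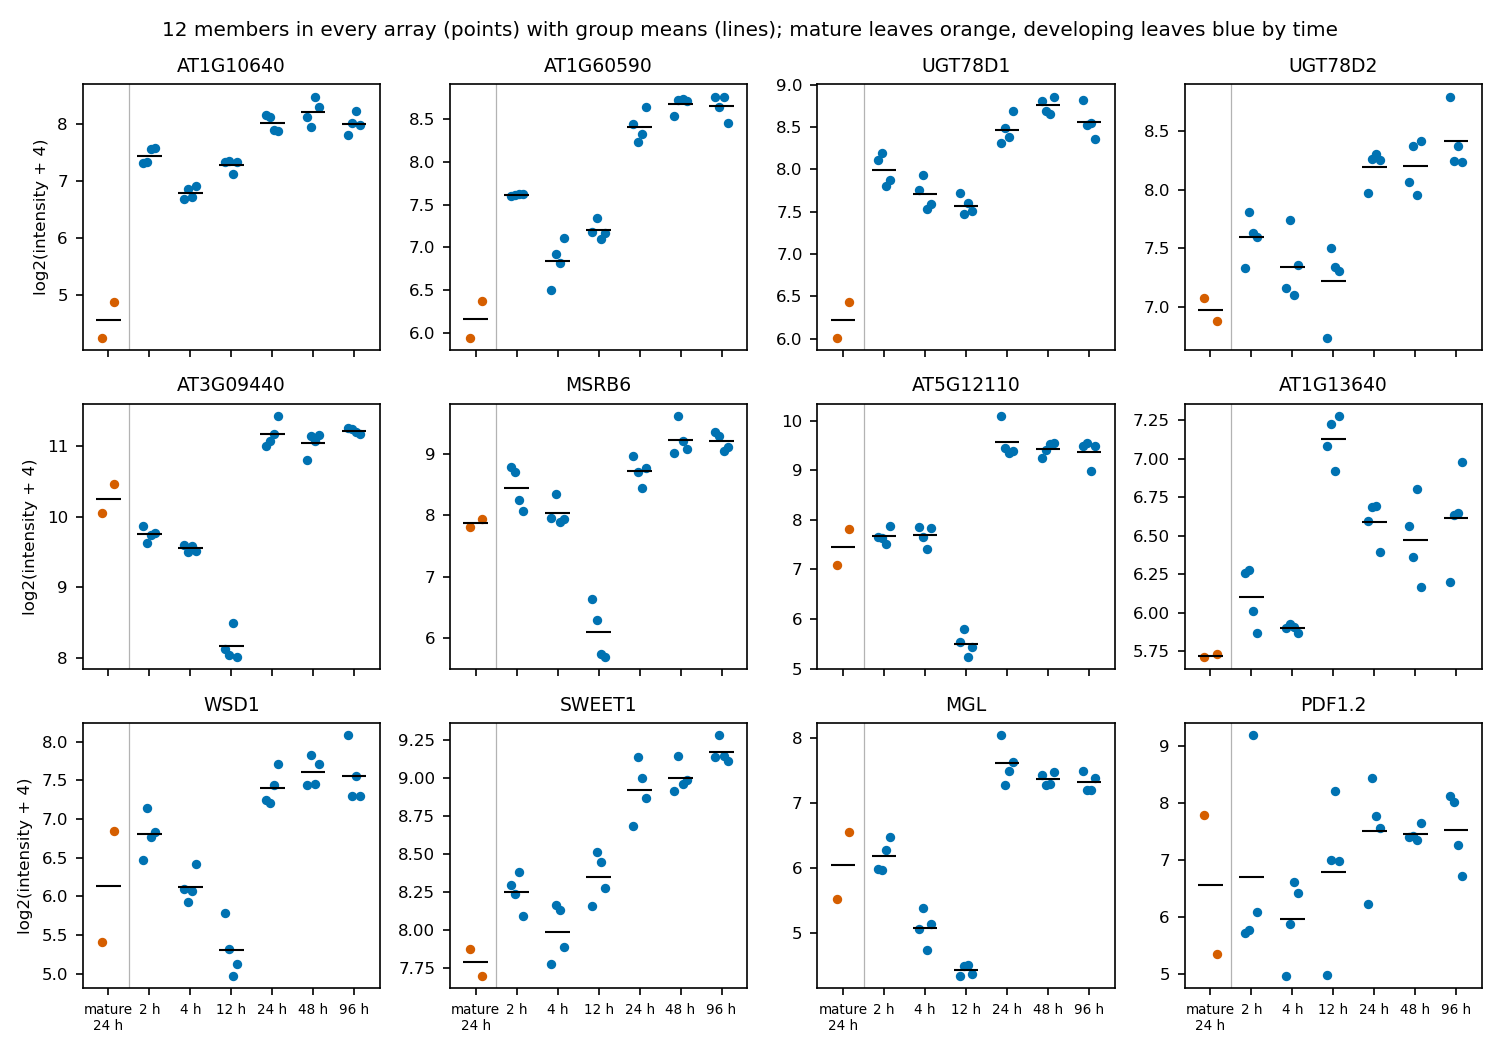
The 12 panels show the log2(intensity + 4) level of 1 gene each in all 26 arrays (points, mature leaves orange at left, developing leaves blue by time) with group means as lines. AT3G09440, MSRB6, AT5G12110 and WSD1 have their lowest developing levels at 12 h, AT1G13640 its highest, and PDF1.2 scatters widely at most times.

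Among the 10 genes with a gene name, wall and cuticle had 1 each, and both fell at 12 h. The 29 genes with a locus code and no role given may include others. EXPB3 read 6.16, 6.61, 6.72 and 6.63 at 12 h and 6.98, 7.10, 7.05 and 7.27 at 4 h, and fell by 0.57 ± 0.14 (adjusted p = 0.0016, limma). In mature leaves it read 6.42 and 6.02, under 7.51, 7.68, 7.82 and 7.95 in developing leaves at 24 h, and mature leaves were below every developing mean. EXPA8, an alpha-expansin and the only measured gene of the 12 on the wall list, went the other way in mature leaves, with a difference of 2.62 against developing leaves at 24 h. EXPA8 differed by 0.06 ± 0.24 between 12 h and 4 h (adjusted p = 0.87, limma). EXPB1, a second beta-expansin, was left out for a strict rise and differed by 1.68 between 96 h and 2 h and by -0.58 between mature and developing leaves.

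WSD1 stood at 5.78, 5.32, 4.97 and 5.12 at 12 h and at 6.09, 5.92, 6.06 and 6.42 at 4 h, and fell by 0.82 ± 0.22 (adjusted p = 0.0047, limma). By 24 h it had a mean of 7.40 ± 0.23, near that of 48 h (7.61) and 96 h (7.56). The mature arrays read 5.41 and 6.84 and disagreed by more than 1 log2 unit. Both were under 7.25, 7.20, 7.43 and 7.71 in developing leaves at 24 h, and the gap of -1.27 was -0.55 without mature replicate 1 and -1.99 without mature replicate 2. WSD1 was the only measured gene of the 16 on the cuticle and wax list.

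The metabolic genes SWEET1, GME and MGL split at 12 h. SWEET1 read 8.16, 8.51, 8.45 and 8.28 at 12 h and 7.78, 8.16, 8.13 and 7.89 at 4 h, and rose by 0.36 ± 0.10 (adjusted p = 0.0068, limma), with arrays of the 2 times overlapping slightly. At 24, 48 and 96 h the developing means were 8.92, 9.0 and 9.17. The mature arrays read 7.88 and 7.69, a gap of -1.14, and lay below all developing means. GME rose by 0.27 ± 0.09 (adjusted p = 0.018, limma), with arrays of 9.43, 9.38, 9.35 and 9.57 at 12 h and 9.17, 9.07, 9.11 and 9.31 at 4 h. The call for GME was lost in 3 of the 19 other settings. Its gap of -0.52 between mature leaves (9.08 and 9.30) and developing leaves at 24 h (9.62, 9.67, 9.72 and 9.85) was just inside the threshold.

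MGL was lowest at 12 h and had the widest step between 12 h and 24 h of the named genes. It read 4.34, 4.50, 4.50 and 4.37 at 12 h and 5.07, 5.38, 4.74 and 5.14 at 4 h, and fell by 0.66 ± 0.17 (adjusted p = 0.0039, limma). Its 24 h mean was 3.18 above that of 12 h, and it stayed high, at 7.61 ± 0.33, 7.38 ± 0.10 and 7.32 ± 0.14 at 24, 48 and 96 h (SD, n = 4 each), against 6.18 ± 0.25 at 2 h. In mature leaves it read 5.53 and 6.56, near the developing 2 h level and under 8.05, 7.27, 7.49 and 7.63 in developing leaves at 24 h. APS3, an ATP sulfurylase and the other measured gene of 5 on the list for sulfur and methionine, was higher in mature leaves by a difference of 1.11 and differed by 0.25 ± 0.16 between 12 h and 4 h (adjusted p = 0.21, limma).

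PDF1.2 was the least settled of the 40. It read 4.99, 7.01, 8.21 and 6.98 at 12 h and 4.96, 5.89, 6.62 and 6.42 at 4 h, a difference of 0.83 ± 0.65 (adjusted p = 0.34, limma). The mature arrays read 7.78 and 5.35, against 6.23, 8.44, 7.78 and 7.57 in developing leaves at 24 h, and the gap of -0.94 was -2.15 without mature replicate 1 and 0.28, of the opposite sign, without mature replicate 2. At 96 h it read 8.13, 8.02, 7.27 and 6.71, and at 2 h 5.73, 5.77, 9.19 and 6.10, so the difference of 0.84 was 1.67 without 2 h replicate 3 and 0.51 without 2 h replicate 1. The gene has near-identical copies in the genome whose transcripts a probe set may not separate. THI2.1, the other measured gene of the 15 on the jasmonate list, differed by -0.57 ± 0.43 between 12 h and 4 h (adjusted p = 0.31, limma) and by -0.97 between mature and developing leaves.

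Among the 29 genes with a locus code and no role given, 15 rose, 4 fell and 10 did not pass at 12 h against 4 h. AT5G12110 had the largest fall of all 40 and the largest difference between 96 h and 2 h. It stood at 5.54, 5.81, 5.23 and 5.43 at 12 h and at 7.86, 7.65, 7.41 and 7.84 at 4 h, and fell by 2.19 ± 0.17 (adjusted p = 8.7e-11, limma), 4.56-fold. At 2, 24, 48 and 96 h it averaged 7.67, 9.57, 9.43 and 9.37, and its 24 h mean was 4.07 above that of 12 h, the widest such step of the 40. In mature leaves it read 7.08 and 7.81, close to the early developing levels and under 10.10, 9.45, 9.35 and 9.38 in developing leaves at 24 h.

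The other 3 that fell were AT4G02850, AT5G15780 and AT3G07090. AT4G02850 read 6.71, 6.91, 6.89 and 6.64 at 12 h and 7.89, 8.0, 7.84 and 7.71 at 4 h, and fell by 1.07 ± 0.11 (adjusted p = 1.4e-08, limma). It was among the genes with the largest gap to mature leaves, which read 5.66 and 6.27 against 8.73, 8.56, 8.49 and 8.44 in developing leaves at 24 h, a 6.02-fold higher level in developing leaves. AT5G15780 fell by 0.88 ± 0.26 (adjusted p = 0.0080, limma), and its mature arrays at 4.67 and 5.91 were under every developing array at 24 h, the lowest of which was 7.32. AT3G07090 fell by 0.74 ± 0.14 (adjusted p = 1.8e-04, limma) and was 1.38 higher at 96 h than at 2 h, with mature arrays at 8.44 and 8.47 against 9.16, 9.22, 9.40 and 9.19 in developing leaves at 24 h.

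AT1G13640 had the largest rise at 12 h and was the only gene to peak there. It read 7.08, 7.23, 6.92 and 7.28 at 12 h and 5.90, 5.92, 5.90 and 5.87 at 4 h, and rose by 1.23 ± 0.14 (adjusted p = 8.6e-08, limma), 2.34-fold. At 24, 48 and 96 h it averaged 6.59, 6.47 and 6.61, against 5.71 and 5.73 in the mature arrays. AT5G55450 rose by 0.83 ± 0.16 (adjusted p = 2.0e-04, limma), with 9.66, 9.70, 9.62 and 9.47 at 12 h and 8.51, 8.98, 8.99 and 8.64 at 4 h. Its gap to mature leaves was unstable. The mature arrays read 9.56 and 8.41, so that the gap of -0.52 was -1.09 without mature replicate 1 and 0.05, of the opposite sign, without mature replicate 2. AT5G55380, with 5 protein-coding genes between it and AT5G55450, differed by 0.08 ± 0.09 between 12 h and 4 h (adjusted p = 0.52, limma).

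Next in size among the rises came AT2G40230 at 0.76 ± 0.14 (adjusted p = 7.1e-05), AT1G76620 at 0.66 ± 0.15 (0.0011) and AT3G47295 at 0.57 ± 0.15 (0.0031, all limma adjusted p). Their arrays at 12 h and 4 h did not overlap. AT1G76620 was low in mature leaves, at 4.67 and 4.24 against 6.13, 6.55, 6.03 and 6.36 in developing leaves at 24 h. AT1G67750 and AT3G51950 rose by 0.48 ± 0.12 and 0.43 ± 0.11 (adjusted p = 0.0034 and 0.0030, limma). The remaining rises, each between 0.28 and 0.43, were those of AT1G54200, AT1G60590, AT5G47610, AT1G27700, AT4G36640, AT3G10840 and AT4G16140. Calls in this group were less secure, and those of AT5G47610 and AT1G27700 were lost in 15 and 11 of the 19 other settings, that of AT4G16140 in 6, that of AT1G60590 in 2, and those of AT4G36640 and AT3G10840 in 1 each.

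The widest gaps between leaf ages belonged to AT4G19430 and AT1G10640. AT4G19430 read 4.04 and 4.11 in mature leaves, an intensity of 12.5 and 13.2, and 8.79, 7.60, 7.29 and 6.39 in developing leaves at 24 h, a gap of -3.44 or 10.9-fold on the log2(intensity + 4) scale. Its developing arrays at 24 h had an SD of 0.99, the largest of the 40 genes at that time, and at 12 h against 4 h it differed by -0.44 ± 0.36 (adjusted p = 0.37, limma). AT1G10640 read 4.26 and 4.89 in mature leaves and 8.15, 8.12, 7.89 and 7.88 in developing leaves at 24 h, a gap of -3.43 or 10.8-fold. It rose by 0.49 ± 0.12 at 12 h against 4 h (adjusted p = 0.0028, limma), with 7.34, 7.34, 7.13 and 7.33 at 12 h and 6.69, 6.87, 6.72 and 6.91 at 4 h. No detection calls came with the values, so whether the mature levels of these genes stood above background is not known.

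AT1G60590 and AT4G16140 were also more than 2 log2 units lower in mature leaves. AT1G60590 read 5.95 and 6.38 in mature leaves and 8.44, 8.23, 8.32 and 8.63 in developing leaves at 24 h, and was 1.03 higher at 96 h than at 2 h. AT4G16140 read 6.30 and 6.64 in mature leaves and 8.74, 8.82, 8.84 and 8.63 in developing leaves at 24 h, and its rise of 0.51 was the smallest of the 40. AT5G47610 combined a large difference between 96 h and 2 h, 1.2, with a gap of -0.66, which became -0.34 without mature replicate 1. Its developing means at 2, 24, 48 and 96 h were 6.47, 7.81, 7.71 and 7.67, so it did not rise further after 24 h.

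**Figure D5:**
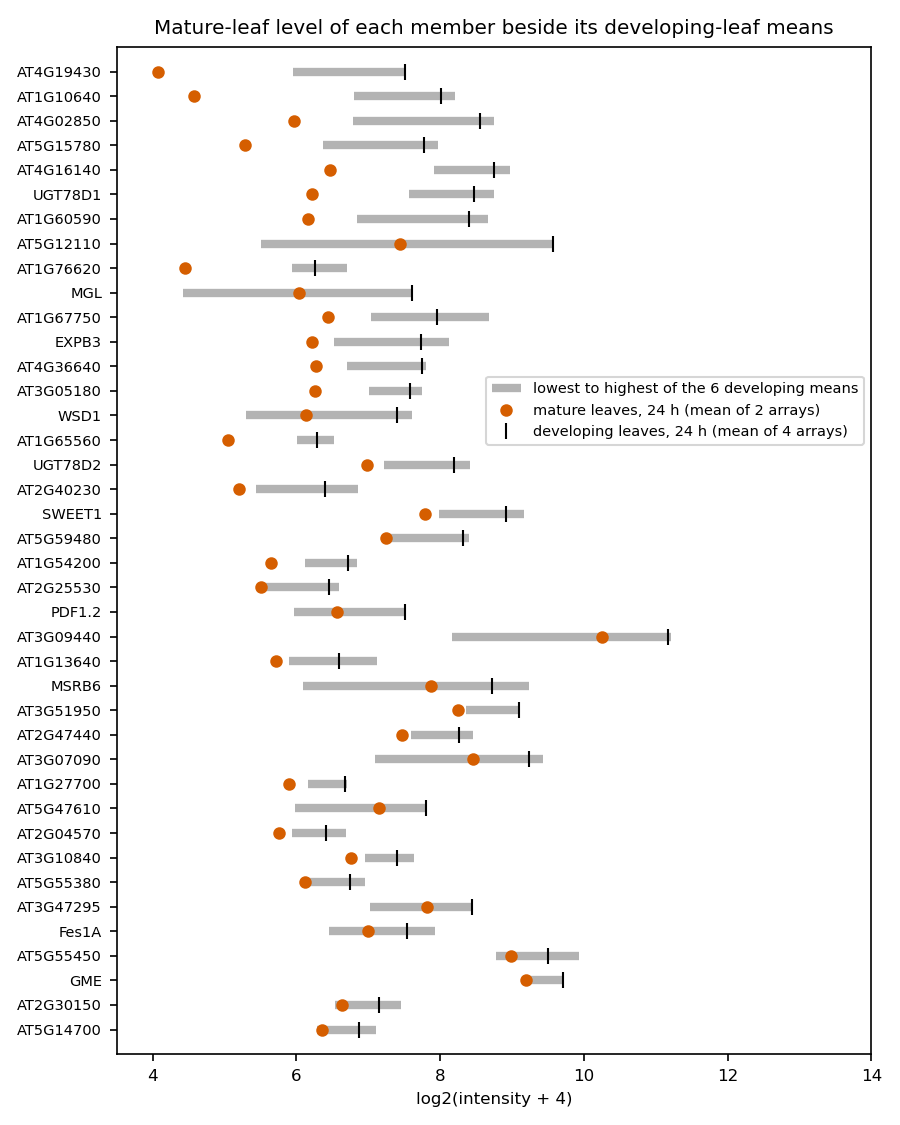
For each of the 40 genes the grey bar spans the lowest to the highest of the 6 developing means, the orange dot is the mean of the 2 mature arrays at 24 h and the black tick the mean of the 4 developing arrays at 24 h, all as log2(intensity + 4). The mature dot lies left of the whole bar in 23 genes, and within it in 7 of the 10 genes that fell at 12 h, among them AT5G12110, MGL, MSRB6 and AT3G09440.

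The genes that did not pass at 12 h against 4 h, apart from those already described, were AT5G14700, AT2G47440, AT2G25530, AT3G05180, AT5G59480, AT2G04570, AT2G30150 and AT1G65560, with differences between -0.04 and 0.31. AT5G14700 came closest, at 0.31 ± 0.13 (adjusted p = 0.062, limma). Its gap of -0.51 to mature leaves was -0.86 without mature replicate 1 and -0.16 without mature replicate 2, and for AT1G27700 the gap of -0.78 was -1.22 and -0.35. Over the 13 genes that did not pass, developing leaves at 24 h were above those at 12 h in all 13 by a difference of 0.21 to 1.56, and over the 10 that fell the same difference was 1.09 to 4.07. Among the 17 that rose, it was above 0 in 14 and ran from -0.53 to 1.48. These differences share the 12 h arrays with the test and are given as a description. AT5G59480 read 6.98 and 7.51 in mature leaves and 8.31, 8.24, 8.40 and 8.35 in developing leaves at 24 h, and AT3G05180 5.98 and 6.54 against 7.51, 7.60, 7.71 and 7.49.

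The clock gene GI, measured with AT5G52660 out of 13 on a clock and light list, fell by 3.76 ± 0.17 at 12 h against 4 h (adjusted p = 1.4e-15, limma), while AT5G52660 differed by 0.16 ± 0.14 (adjusted p = 0.37, limma). At 24 h GI averaged 5.71, close to the 5.88 of 2 h, while at 4 h it averaged 7.40. If all hours ran from 1 start, 24, 48 and 96 h share a time of day that 2, 4 and 12 h do not. In the difference between 96 h and 2 h, days elapsed and time of day then cannot be told apart. The part of the time of day in that difference and in the 12 h values was not tested, since the labels give no clock time. With the actin ratio as a covariate 15 of the 40 genes passed as higher and 9 as lower.

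Values lay close to each threshold on both sides. On the mean level, AT2G25530 at 6.0 and AT1G65560 at 6.13 were just inside, and AT3G17130 at 5.98 and AT5G24580 at 5.76 just outside. For the rise, AT4G16140 and AT1G65560 at 0.51 were inside, and AT2G14900 and AT1G06550 at 0.49 outside. For the gap to mature leaves, AT5G14700 at -0.51 and AT2G30150 at -0.52 were inside, and AT4G30470 at -0.49 and AT1G01320 at -0.47 outside. The other 5 genes left out for a strict rise, AT1G06000, AT1G23205, AT1G48100, AT3G13980 and ASPGB1, differed by 1.14 to 1.43 between 96 h and 2 h and by -0.71 to -2.70 between mature and developing leaves at 24 h.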

How the data were processed

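Transcript levels were measured on 26 arrays. The deposited table held 1 MAS5 intensity for each of 22810 probe sets and array, on a linear scale and made by the authors with MAS5, per the submitters' processing notes; the version, background correction and settings were not given in the sources used here. Every array had the same mean after trimming 2% at each end, and this scaling was kept. The number of arrays limits the precision. The 64 AFFX controls were left out. Values were taken as log2(intensity + 4), so fold changes of dim probe sets are understated. Of the other 22746 probe sets, 13513 named 1 gene in the platform annotation, 503 several and 8730 none. Gene names and neighbours were read from RefSeq (TAIR10.1), which matched all 40 genes.

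Probe sets under the 40th percentile of the mean were not tested, since there were no detection calls, which left 13648. limma 3.58.1 in R 4.3.3 fitted 7 group means to all arrays with a variance trend, and p-values were adjusted by Benjamini-Hochberg with a threshold of 0.05. Only 12 h against 4 h was tested, since the other groups chose the genes. The genes and the lists were chosen with earlier results of these data known. Genes are named by rule, namely up to 8 largest rises and falls in the test, the 8 largest of each choosing difference, genes on a list, those with a gene name, and the nearest to each threshold; the other genes are named to account for all 40. On simulated data with 13648 probe sets for this comparison the fit recovered 42 of 100 changes of 0.5 and 96 of 100 changes of 1 (log2), with 9 false calls. No other probe sets were changed in the simulation, whereas 39.2% passed in the data. The adjustment depends on that share, so neither the recovery nor the false calls carry over to the data. Alternatives changed the pseudocount, filter, scaling, variance model and replicates. Lists for trichome, vascular, root, flower and meristem markers had no gene named in the annotation, and the senescence list had 1, which was under the filter. No sequences were used here, and gene positions served only to count the genes lying between neighbours.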

Additional observations from a re-analysis of the deposited data

Results flagged for a closer look

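Of 240 combinations of gene and group with 4 arrays, 16 had 1 array far from the other 3 by Dixon's test, and chance gives about 1 in 20. The widest was PDF1.2 at 2 h, where replicate 3 read 9.19 and the others 5.73 to 6.10. AT5G12110 had 2, at 24 h with replicate 1 at 10.10 above 9.35 to 9.45, and at 96 h with replicate 3 at 8.99 below 9.48 to 9.55. At 24 h replicate 1 also stood apart for AT5G47610 (8.33, high) and UGT78D2 (7.97, low), and replicate 4 for AT1G54200 (6.46, low). At 4 h, replicate 2 was high for MSRB6 (8.34) and AT4G36640 (7.02), and replicate 1 was low for AT3G05180 (6.84). At 48 h, replicate 1 was low for AT1G60590 (8.53) and AT2G04570 (6.06), and replicate 4 was high for EXPB3 (8.04) and AT2G40230 (6.94). The remaining ones were Fes1A at 2 h (replicate 2, 7.20, high), AT1G10640 at 12 h (replicate 3, 7.13, low) and AT4G16140 at 96 h (replicate 1, 8.54, low).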

How the results depend on the processing

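The number of genes called at 12 h against 4 h stayed between 20 and 28 over the 19 other settings, against 27 as reported, with 10 to 18 higher and 9 or 10 lower. Leaving out 1 of the 4 h or 12 h arrays in turn gave 23 to 26, and 4617 to 4934 of all probe sets. Centring each array on its median left 10 higher calls. Of the 27 called genes, 19 kept their call in all 19 settings. The deviations of 12 h and 4 h arrays of the same number correlated by 0.38, 0.26, 0.09 and 0.25, and each 12 h array correlated best with the 4 h array of its own number, which hints at something shared by number. The labels name no shared plant or batch and 1 of the 4 correlations was under 0.1, the minimum set for pairing, so the fit without the block was kept. With the replicate block 26 of the 40 genes and 5539 of all probe sets passed. The choice of genes depended on its thresholds and on scaling. Centring each array on its median raised every mature minus developing difference at 24 h by 0.07, and 31 of the 40 genes then met the rule. A floor of 7 on the mean left 25 and differences of at least 1 left 4, other settings gave 32 to 51, leaving out 1 array gave 34 to 43, and 17 genes met the rule in all 22 settings that changed the pseudocount or scaling or left out 1 array. Signs turned only in genes that did not pass. With quantile normalization AT5G59480 was -0.0063, AT2G04570 -0.047 and AT2G30150 -0.048. With centring AT3G05180 was -0.033, AT5G59480 -0.043, AT2G04570 -0.053 and AT2G30150 -0.066. With array weights AT2G04570 was -0.012 and AT2G30150 -0.013, and with the actin ratio as covariate AT1G65560 was 0.14 and UGT78D2 0.0052. With 1 array left out, the differences ran from -0.024 to 0.10 for AT3G05180, -0.026 to 0.095 for AT5G59480, -0.084 to 0.072 for AT2G04570, -0.026 to 0.036 for AT2G30150, -0.11 to 0.054 for AT1G65560 and -0.21 to 0.044 for UGT78D2. The cause was not tested.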
